A study of Mus musculus with 8 samples.

Results

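The perilipins and the Cide proteins coat the lipid droplets of the cell and govern how droplets grow and fuse. Their genes were selected by symbol, and all 8 (*Plin1* to *Plin5*, *Cidea*, *Cideb* and *Cidec*) were found among the 27179 genes of the deposited table. Liver RNA of 4 wild-type mice and of 4 mice homozygous for V227A, a valine to alanine substitution in the hinge of the nuclear receptor PPARɑ, was sequenced. The animals were adult males of the strain C57BL/6NHsd, sampled after a fast of 6 h. Their age was 12 to 14 weeks by the general statement of the study's methods, and the diet of the sequenced mice was not given in the sources used here. The germline base edit came from a single heterozygous founder that was backcrossed to C57BL/6NHsd, and both genotypes were bred from heterozygotes. The receptor carried the substitution in every tissue, not in the liver alone.

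The values used here are the authors' average log2 CPM (read counts scaled to the size of the library), in which the 8 libraries of both genotypes are pooled. The table holds 0 columns of values per library, so no SD and no difference between wild-type and V227A livers can be given, and no level below belongs to either genotype. The authors' own comparison of the genotypes in the same table was not used. Of the genes of the table, 18937 had reads, with a mean effective library size of 27473997 reads and a median of 100.1 reads per library and gene. How far single libraries lay from this mean is not known.

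Perilipins are related proteins that bind the surface of the droplet, and they regulate the access of lipases to the stored triglyceride. Cide proteins gather at the contact of a droplet pair and pass lipid from the smaller to the larger droplet, and Cideb also takes part in loading lipid onto VLDL. In hepatocytes Plin2 is the best known droplet coat, whereas Plin1 and Cidec are known from white fat and Cidea from brown fat. Several of these genes, *Plin2*, *Plin5*, *Cidea* and *Cidec* among them, are known PPAR targets, and hepatic droplets take up fatty acids released from adipose tissue during a fast.

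The regions in front of the start sites of the 3 members with the highest levels per length are shown for orientation, since it is at such regions that PPARɑ and other factors bind. The sequences are from RefSeq (GRCm38.p6), minus strand, and each runs from 250 to 51 bases before the annotated start, where GENCODE vM21 has 0 exon bases of any gene. Capitals mark the hexamer AGGTCA (read as TGACCT on the opposite strand), a single PPAR and RXR repeat unit, in *Plin2* and *Plin5*, and the letters TATAAA in *Cideb*. These *Cideb* letters lie from 172 to 167 bases before the start, and whether they act in the promoter was not tested.
*Plin2* (chr4:86670110-86670309): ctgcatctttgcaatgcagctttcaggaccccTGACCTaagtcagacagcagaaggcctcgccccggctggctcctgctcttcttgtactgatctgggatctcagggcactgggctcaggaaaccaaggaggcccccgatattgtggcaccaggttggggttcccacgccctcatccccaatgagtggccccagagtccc
*Plin5* (chr17:56117599-56117798): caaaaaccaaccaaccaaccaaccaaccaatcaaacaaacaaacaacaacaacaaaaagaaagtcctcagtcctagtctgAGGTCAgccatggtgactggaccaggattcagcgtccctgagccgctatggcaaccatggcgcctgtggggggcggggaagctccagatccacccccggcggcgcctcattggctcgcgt
*Cideb* (chr14:55758475-55758674): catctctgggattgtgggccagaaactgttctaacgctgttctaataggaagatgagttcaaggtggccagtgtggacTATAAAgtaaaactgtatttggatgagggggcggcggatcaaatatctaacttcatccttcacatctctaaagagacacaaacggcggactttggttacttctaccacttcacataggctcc

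RefSeq windows from 250 bases before to 50 after the start were on hand for 7 of the 8 members. *Cidea* had no window and was not searched. There were 9 windows in all because *Plin5* and *Cidec* each have a second start. The PPAR response element is a direct repeat of the hexamer with a spacer of 1 base, and it was searched among 8 sets of letters in all. On either strand, the full repeat AGGTCANAGGTCA was in 0 of the 9 windows and in 0.0396% of all 32851 windows. With a free base in each unit, AGGNCANAGGNCA, it was again in 0 of 9, against 0.381% of all windows. A looser pattern, AGGNNANAGGNCA, was in 1 window, that of the upstream *Cidec* start from 214 to 202 bases before it, against 0.913% of all windows. The truncated repeat AGGNCANAGG was in 1 window, that of *Plin3*, against 2.96%. The hexamer AGGTCA alone, which lies within the full repeat, was in 3 of the 9 windows, those of *Plin2* and both *Plin5* starts, and in 16.3% of all windows. The *Plin2* copy began 218 bases before the start, and the *Plin5* copy shown began 170 bases before it. The copy at the other *Plin5* start lay from 13 to 18 bases after that start. For the *Plin5* start shown and both *Cidec* starts, the end of the window was not found in a GENCODE vM21 transcript of the gene. Of the general promoter letters, TATAAA was in 1 of the 9 windows (13.6% of all), CCAAT in 4 (37.4%) and GGGCGG in 5 (35.7%). A match is a run of letters and not a bound site, binding at these genes was not analysed here, and elements further away lie outside the windows.

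Read abundance spanned a wide range over the family. *Plin2* and *Cideb* were among the more abundant transcripts of the liver, *Plin5*, *Plin3* and *Plin4* were at intermediate to high levels, *Cidec* stood above 57.0% of the genes with reads, and *Cidea* and *Plin1* were close to absent. On the scale of average log2 CPM, 6 of the 8 members lay above the median of all genes with reads (1.89). The same number had at least 10 estimated reads per library. Most genes with reads also did, as their median was 100.1, so this count is not particular to the members. The other two, *Cidea* and *Plin1*, each had fewer than 10 reads per library.

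**Figure D1:**
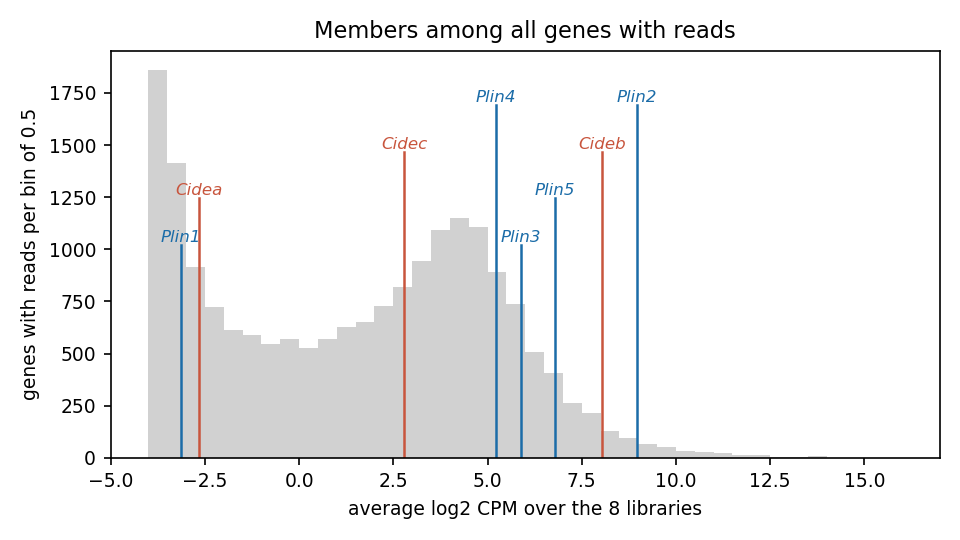
Average log2 CPM over the 8 libraries (x axis) of all genes with reads, as a histogram in bins of 0.5 (y axis, number of genes), with lines for the perilipins (blue) and the Cide proteins (red); line heights carry no value. *Plin2* (8.96) and *Cideb* (8.05) stand in the upper tail. *Plin1* (-3.13) and *Cidea* (-2.65) stand near the low end, where the histogram falls from its peak of genes with almost no reads.

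*Plin2*, the droplet coat found in most cell types, lies on chromosome 4 of GRCm38 from 86648386 to 86670060 on the minus strand. Its authors' average log2 CPM was 8.96, which is 498.2 CPM or an estimated 13686 reads per library. It ranked 249th by average log2 CPM among the genes with reads, above 98.7% of them. Per kilobase of its exons the level of *Plin2* was 141.8 CPM.

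*Plin5* is the perilipin of oxidative tissues, where it holds droplets next to mitochondria and binds the lipase Pnpla2 and its co-activator Abhd5. The gene lies on chromosome 17 from 56111601 to 56117596. Its average log2 CPM was 6.79, from an estimated 3034 reads per library, above 94.2% of genes with reads. Per kilobase the level of *Plin5* was 52.9 CPM, so that the *Plin2* level was 2.68 times that of *Plin5*. This ratio was 4.75 with the longest transcript as the gene length and 12.7 with the median transcript.

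*Plin3*, a soluble coat that moves from the cytosol onto newly formed droplets, lies on chromosome 17 from 56277476 to 56292873. It had an average log2 CPM of 5.89 and an estimated 1623 reads per library. Its level per kilobase was 15.6 CPM. *Plin4*, which coats small droplets in fat cells, lies on the same chromosome from 56100591 to 56109803. Its average log2 CPM was 5.23, with an estimated 1026 reads per library, but it is the longest of these genes (5777 exon bases) and its level per kilobase was only 6.46 CPM. *Plin4* and *Plin5* are neighbours on the same strand with 1797 bases between them and 0 protein-coding genes in the gap, while 159879 bases and 7 protein-coding genes separate *Plin5* from *Plin3*. These neighbours did not share 1 level: per kilobase, *Plin5* was highest, *Plin3* came next and *Plin4* was lowest. Of the *Plin4* exons, 17 bases overlap *Hdgfl2* on the opposite strand, which is 0.294% of their length.

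*Plin1*, the coat that gates lipolysis in white fat, lies on chromosome 7 from 79720218 to 79732903. Its average log2 CPM was -3.13, which is an estimated 1.14 reads per library, or 9 reads over the 8 libraries. The exact 95% Poisson interval of that total, which covers counting error only, ran from 4.12 to 17.1 reads, or 0.0187 to 0.0777 CPM. *Plin1* was thus detected, above only 15.9% of the genes with reads.

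Among the Cide genes, *Cideb* stood far above the others. *Cideb*, the liver member of the family, lies on chromosome 14 from 55754050 to 55758458. Its average log2 CPM was 8.05, from an estimated 7262 reads per library, above 97.6% of genes with reads. Per kilobase of exon its level was 177.6 CPM. Of the 1488 exon bases of *Cideb*, 1136 (76.3%) are also exon of *Nop9*, a gene on the opposite strand with an estimated 612.7 reads per library. The libraries were stranded, but the strand setting of the counting was not given in the sources used here, so how reads in the shared bases were assigned is not known. The estimated reads of *Cideb*, without a length correction, were 11.9 times those of *Nop9*. This ratio of assigned reads cannot show how the shared bases were counted.

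*Cidec*, also known as Fsp27, drives the growth of large droplets in white fat and is induced in fatty liver. It lies on chromosome 6 from 113424634 to 113435760 and has 4 coding transcripts in GENCODE vM21, which a count per gene does not separate. The average log2 CPM of *Cidec* was 2.79, an estimated 187.8 reads per library, and its level per kilobase was 3.68 CPM. *Cidea*, the brown fat member, lies on chromosome 18 from 67343604 to 67367785. Its average log2 CPM was -2.65, an estimated 2.38 reads per library or 19 reads in all. The exact 95% Poisson interval of that total ran from 11.4 to 29.7 reads, or 0.0520 to 0.135 CPM, again for counting error only.

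Levels between genes were compared per kilobase of exon. By the exon union of GENCODE vM21, *Cideb* came first and was followed by *Plin2*, *Plin5*, *Plin3*, *Plin4*, *Cidec*, *Cidea* and *Plin1*. The annotation used for the counting is not known, so these lengths may not be those of the counted exons. Together *Cideb* and *Plin2* made up 80.2% of the summed level per kilobase of the 8 genes, which was 398.2 CPM per kb. The step from *Cideb* to *Plin2* was small, 1.25 times, and its direction turned with the gene length used. With the longest transcript, *Plin2* was 1.21 times *Cideb*, with the exons of coding transcripts (an alternative chosen after seeing the data) 1.08 times, and with the median transcript 2.80 times. The 2 genes are therefore not ordered by these data. The other 6 members kept their places under each of these lengths and also without a length correction, where *Plin2* was first. By the exon union, steps after *Plin2* were 2.68 times to *Plin5*, 3.39 times to *Plin3*, 2.41 times to *Plin4* and 1.75 times to *Cidec*. Below *Cidec* the level dropped 47.5 times to *Cidea*, and then 8.72 times to *Plin1*. That last step rests on 19 and 9 reads and on the long exon union of *Plin1*, whose level rose from 0.00890 to 0.0320 CPM per kb with the median transcript, against 0.0776 for *Cidea* with either length. The spread between mice behind these steps is unknown, since each gene has a single pooled value.

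**Figure D2:**
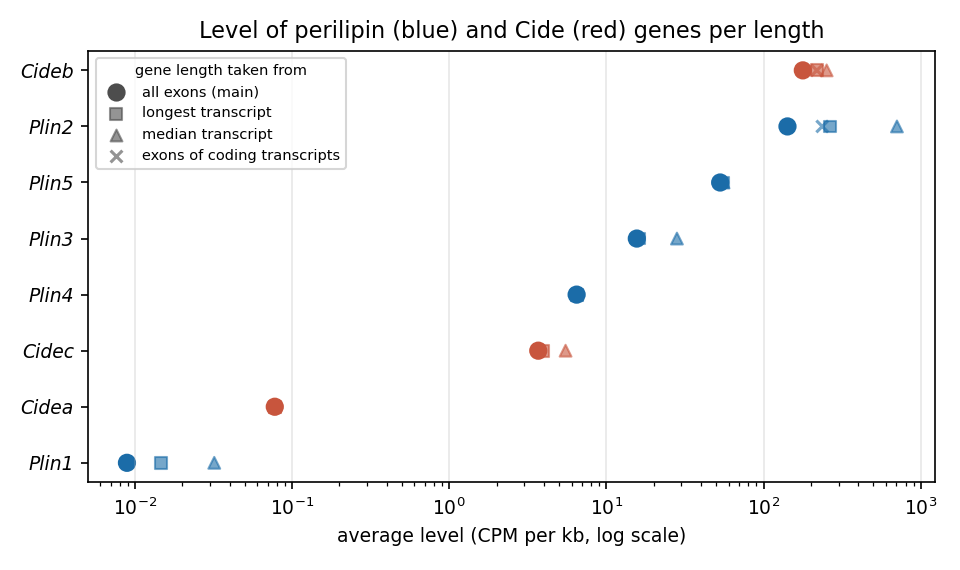
Average level over the 8 libraries in CPM per kilobase (x axis, log scale) of each perilipin (blue) and Cide gene (red), with the length of the gene taken from all its exons (circles), its longest transcript (squares), its median transcript (triangles) or the exons of its coding transcripts (crosses). *Cideb* (177.6) and *Plin2* (141.8) exchange places when another length is used, and the other genes keep their order down to *Plin1*.

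Within the perilipins, *Plin2* made up 65.4% of the summed level per kilobase, *Plin5* 24.4%, *Plin3* 7.20% and *Plin4* 2.98%. The *Plin1* share was 0.00410%. In every other setting used, the *Plin2* share was higher. Without a length correction the *Plin2* share was 70.7% and the *Plin5* share 15.7%, a change of more than 1.5 times for *Plin5*. With the median transcript the *Plin5* share fell to 6.99%, because the median of the 8 annotated *Plin2* transcripts was only 706.5 bases. The *Plin3* share was then 3.53% and the *Plin4* share 0.816%, whereas without a length correction the *Plin4* share was 5.29%. With the longest transcript the shares were 16.2% for *Plin5*, 4.74% for *Plin3* and 1.90% for *Plin4*. Within the Cide genes, *Cideb* made up 97.9% of the summed level per kilobase, *Cidec* 2.03% and *Cidea* 0.0428%.

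Markers of other tissues were read beside these levels, because *Plin1*, *Cidec* and *Cidea* are also genes of fat cells. All 6 markers of the hepatocyte, the main cell of the labelled tissue, had high levels, from 168.4 CPM per kb for *Hnf4a* to 29709 for *Alb*. Of the 5 white adipocyte markers, *Lep* (leptin) had 0.254 reads per library, *Retn* (resistin) 2.66 and *Adipoq* (adiponectin) 6.88, whereas *Cfd* had 44.6 and *Fabp4*, which endothelial cells also express, 254.9. *Lep*, *Retn* and *Adipoq*, like *Plin1*, had fewer than 10 reads per library, and 0 of the 5 markers were without reads. The estimated 187.8 reads of *Cidec* were more than those of *Lep*, *Retn*, *Adipoq* and *Cfd*, and fewer than those of *Fabp4*. Per kilobase of all exons, *Cidec* (3.68 CPM) was above *Fabp4* (2.07). With the exons of coding transcripts, *Fabp4* was at 10.4 CPM per kb, above the 3.68 of *Cidec*. Of the brown adipocyte markers, *Ucp1* had 1.40 reads per library and *Dio2* 0.127, both fewer than the 2.38 of *Cidea*, but *Elovl3*, a fatty acid elongase that liver also expresses, had 8538. The part of fat cells in the levels of *Plin1*, *Cidea* and *Cidec* was not tested. In bulk liver, more cells of a type and more RNA per cell cannot be told apart.

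Markers of other cells that store lipid or take it up had reads, but the presence of these cells was not tested. The 5 stellate cell markers, from the cells that hold retinyl esters in droplets, ranged from 0.963 CPM per kb (*Reln*) to 18.1 (*Colec11*). Both ends are by the exon union, as is the median of all genes with reads and a known length, 1.16. With the median transcript as the length, *Lrat* (1.44) was lowest of the 5, *Reln* was at 8.94 and *Dcn* (56.6) was highest. The 4 Kupffer cell and macrophage markers ranged from 1.45 (*Adgre1*) to 33.2 (*Clec4f*). *Plin2*, which both cell types can express, was at 141.8 CPM per kb, above every marker of these lists. The skeletal muscle markers lay between 0.0484 (*Myh4*) and 0.446 CPM per kb (*Acta1*).

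Genes of lipolysis and of droplet formation were read from further lists. Whether each enzyme of lipolysis acts on the coated droplet was not examined. All 11 genes of lipolysis and its regulators had reads, with a median level of 71.6 CPM per kb, against 15.6 for the 5 perilipins and 1.16 for all genes with reads and a known length. The highest were the carboxylesterases *Ces3a* (822.4 CPM per kb) and *Ces1d* (265.2), which belong to a cluster of similar genes among which reads could be split. The lowest were *Pnpla3* (0.608) and *Hilpda* (2.06), the latter an inhibitor of the lipase Pnpla2. All 13 genes of droplet formation and growth had reads, with a median of 8.77 CPM per kb. The highest were *Dgat2* (174.2), which makes the last step of triglyceride synthesis, and *Hsd17b13* (132.7), a droplet protein of the liver. The lowest were *Acsl3* (2.62), an acyl-CoA synthetase of nascent droplets, and *Spart* (3.59), the gene of spartin. With the median transcript as the length, *Fitm2* (4.85) was lowest of this list and *Acsl3* was at 15.4. *Aup1* (303.1) then stood above *Hsd17b13* (218.4). No test was run between lists, as genes are not replicates.

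**Figure D3:**
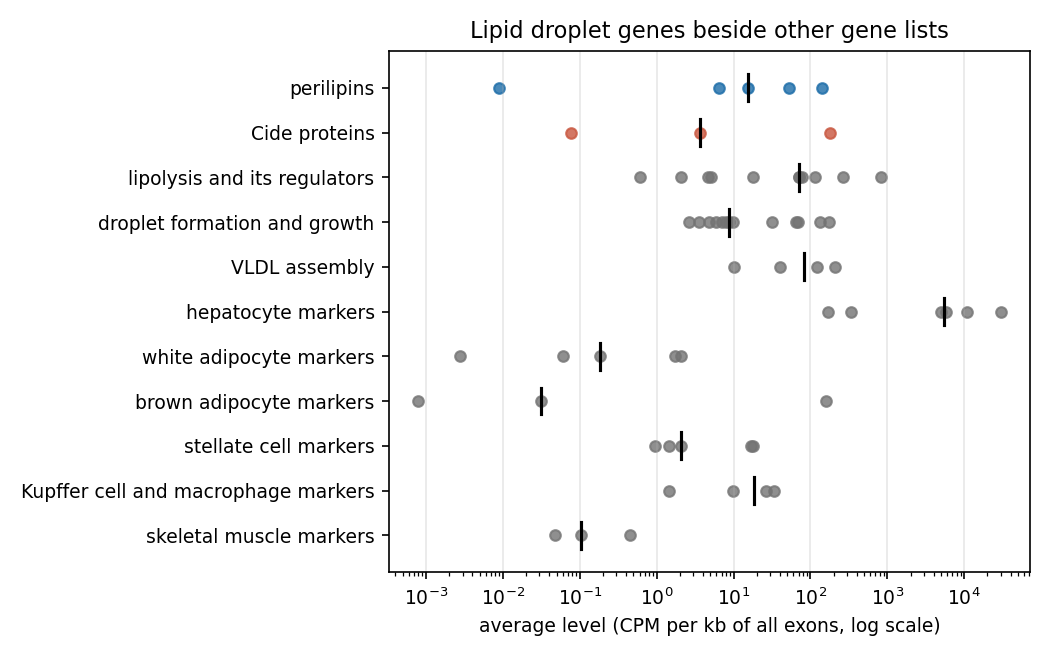
Average level in CPM per kilobase of exon (x axis, log scale) of each gene (points) in the perilipins, the Cide proteins, 3 lists of lipid genes and 6 lists of cell markers (rows), with the median of each list as a black bar. Perilipins run from *Plin1* (0.00890) to *Plin2* (141.8) and Cide genes from *Cidea* (0.0776) to *Cideb* (177.6), and the lowest of each lies among the fat and muscle markers.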

How the data were processed

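Stranded poly-A libraries of 8 livers were sequenced as paired-end reads. The authors trimmed the reads with Trimmomatic, checked them with FastQC, aligned them with STAR to GRCm38 (mm10) and assigned them to genes with featureCounts, and edgeR served the authors for the comparison of the genotypes. Versions, annotation and strand setting were not given in the sources used here. The deposited average log2 CPM, 1 value per gene over all libraries, was the only measurement used. The other 4 numeric columns hold the authors' own comparison (fold change, F statistic, p-value and adjusted p-value) and were not used. No comparison of genotypes was made.

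The lowest average log2 CPM (-3.78, in 8242 genes) was taken as that of a gene without reads. Taking a prior count of 2, which is the default of the authors' tool, this floor gave the mean effective library size, and each gene's reads and CPM followed. For 99.9% of the 2378 genes with estimated totals of at most 5 reads, the total differed from a whole number by at most 0.1. The conversion was also run on simulated data made with the same prior count, which cannot check that choice. Gene positions, exon unions and transcript lengths came from GENCODE vM21, matched by Ensembl ID for 91.0% of genes with reads. Alternatives were other gene lengths, other sets of ranked genes and the prior count left in. Members, lists and named genes (all members, the 2 highest and 2 lowest of each lipid list, overlapping genes) were chosen with earlier results of these data known. Python 3.11.15, pandas 2.3.3, numpy 2.4.6 and matplotlib 3.10.9 were used.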

Additional observations from a re-analysis of the deposited data

How the results depend on the processing

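Leaving out single mice was not possible with a pooled value. No paired analysis was possible because the table has no value per library. With the longest transcript as the length, the level per kilobase was 218.1 CPM for *Cideb* and 263.9 for *Plin2*, with the median transcript 251.8 and 705.1, and with the exons of coding transcripts 218.1 and 236.1. The *Plin2* share of the perilipins was 70.7% without a length correction, 77.1% with the longest transcript, 88.7% with the median transcript and 75.9% with the exons of coding transcripts. The *Cideb* share of the Cide genes was 97.4%, 98.2%, 97.8% and 98.3% in the same order. In each of these settings 6 of the 8 genes held the same place in the order, *Cideb* and *Plin2* being the exceptions. Leaving the prior count in raised the level of *Plin1* from 0.0414 to 0.114 CPM and that of *Cidea* from 0.0865 to 0.159 CPM, and moved the other 6 genes by less than their counting error. Among genes with an average log2 CPM of at least 0, *Plin2* stood above 97.9%, *Cideb* above 96.1% and *Cidec* above 30.4%. The depth limits *Plin1* and *Cidea*, whose values rest on 9 and 19 reads.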

Other observations

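The partners of *Cideb* in VLDL assembly and the receptors themselves were also read on the scale of average level per kilobase. All 4 VLDL assembly genes had reads, *Apob*, the structural protein of the particle, at 207.8 CPM per kb, *Sar1b* at 122.3, *Mttp*, the triglyceride transfer protein, at 40.5 and *Tm6sf2* at 10.1. *Ppara* was at 86.5 CPM per kb and its partner *Rxra* at 77.7, while *Pparg*, the receptor of fat cells, was at 2.09. The droplet protein genes *Fitm1* and *Fitm2*, known from muscle and from many tissues, stood at 31.3 and 4.85 CPM per kb. Seipin (*Bscl2*), which shapes the site where droplets form, was at 9.94 CPM per kb. The *Pnpla2* inhibitor *G0s2* was at 116.0, *Pnpla2* itself at 71.9 and its co-activator *Abhd5* at 4.66 CPM per kb. With the median transcript *Pnpla2* was at 120.8 and *G0s2* at 116.0, so this pair is not ordered by these data. With that length *Abhd5* rose to 26.5 and *Bscl2* to 33.7 CPM per kb. *Fitm1*, *Fitm2*, *Aup1*, *Bscl2*, *G0s2*, *Pnpla2* and *Abhd5* were named after their values were seen. These are pooled levels, with no error between mice.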
